A study of Mus musculus with 34 samples.

Results

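Long intergenic noncoding RNAs (lincRNAs) are transcripts with no recognised protein product whose genes lie between protein-coding genes. Like messenger RNAs they are made by RNA polymerase II, and their active promoters carry trimethylation of lysine 4 of histone H3 (H3K4me3), a modification deposited around the start sites of transcribed genes and favoured by DNA rich in CpG dinucleotides. The promoters described here were the 5′ ends of the lincRNA genes of GENCODE M21 on the standard chromosomes of mm10 that lay more than 5000 bp from the 5′ end of every transcript of a protein-coding gene. They numbered 5143 of 5854 lincRNA genes, and were examined beside the 5′ ends of the other 711 lincRNA genes and of 21938 protein-coding genes, which made 27792 promoters in all. The value of a promoter was its signal, the mean H3K4me3 fragment coverage per base at a depth of 10000000 tags, within 1000 bp on each side of the 5′ end. Since all windows had the same length, signals could be compared between genes.

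H3K4me3 had been profiled by CUT&RUN, in which an antibody directs protein A fused to micrococcal nuclease to the modification and the released DNA is sequenced. The antibody, anti-H3K4me3 from Millipore, was the same in all libraries. The groups were 2 wild-type libraries (C57BL/6J) and 2 Apc Min/+ libraries (C57BL/6J background, a germline mutant copy of the tumour suppressor gene Apc), each made from cells that had been scraped off the villi of small intestine that looked normal. The libraries are called WT rep1, WT rep2, APC rep1 and APC rep2. The labels give 5-week animals and the methods 6 weeks, no treatment is listed, and the methods name 2 mice per group. The comparison addressed whether the mark of active chromatin differs in Apc Min/+ epithelium before tumours are seen. Scraped villi are a mixture, and a lower signal from fewer cells carrying the mark cannot be told apart from less of the mark in each cell.

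The libraries were unequal. WT rep1 and WT rep2 held 1430000 and 4790000 tags, and APC rep1 and APC rep2 held 3700000 and 5470000. APC rep1 stood apart, with a mean signal of 6.85 over protein-coding promoters where the other libraries had 1.76 to 2.59, and a background of 0.212 where the others had 0.304 to 0.334. Background was the mean signal more than 5000 bp from every annotated 5′ end. Of 13 enterocyte markers, 10 carried at least 5 times background in all 4 libraries (among them Vil1, Alpi, Hnf4a, Cdx2 and Apoa4), and 0 of 11 immune, 0 of 10 mesenchymal, 0 of 9 secretory and 0 of 7 neuronal markers did.

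At most lincRNA promoters the H3K4me3 signal in the villus was close to background. The median promoter held a signal of 0.349 and 0.403 in WT rep1 and WT rep2, 0.270 and 0.366 in APC rep1 and APC rep2. These medians were 1.15 to 1.27 times the background of their library, whereas the median protein-coding promoter stood 2.91 to 7.63 times above it. A promoter was called marked in a library when its signal reached 5 times that library's background, which took 4.35, 16.0, 7.86 and 16.8 fragments in the order above. By this rule 303 and 110 lincRNA promoters were marked in WT rep1 and WT rep2, 332 and 185 in APC rep1 and APC rep2. All 4 libraries agreed on 88, or 1.71% of the 5143, and 4649 (90.4%) were marked in none. The same rule marked 38.0% of protein-coding promoters in all 4 libraries and 29.4% of the lincRNA promoters within 5000 bp of a protein-coding 5′ end. Of 59 lincRNA promoters marked in exactly 3 libraries, 47 fell short in WT rep2. The values around the limit were continuous: C430042M11Rik was just inside with a lowest value of 5.05 times background, and Gm13203 just outside with 5.00 in WT rep2.

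The highest signals belonged to a ribosomal DNA fragment, not to ordinary lincRNA genes. Gm26917 (ENSMUSG00000097971.3, chr17:39843013-39846341), Gm42418 (ENSMUSG00000098178.1, chr17:39846958-39848788) and AY036118 (ENSMUSG00000105361.1, chr17:39847113-39848035) overlie or adjoin a gene annotated as rRNA, and the windows of the last pair overlap. Gm42418 had 171 and 90.8 in WT rep1 and WT rep2, 64.5 and 186 in APC rep1 and APC rep2. Gm26917 had 124, 68.5, 62.7 and 141 in the same order. At both, APC rep1 was the lowest library. Ribosomal DNA is present in many copies in the genome and in few in the assembly, so these values cannot be read as a level per copy. The locus supplied 6.15 to 16.1% of the summed signal of all 5143 promoters. It is left out of the descriptions of marked promoters that follow, which rest on the remaining 85.

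In the 85 marked lincRNA promoters the modification reached nearly the level of marked protein-coding promoters. Their mean signal was 4.35 and 3.01 in WT rep1 and WT rep2 and 13.3 and 3.88 in APC rep1 and APC rep2, which was 78.2 to 83.6% of the mean of the 8330 protein-coding promoters marked in all 4 libraries. They held 11.0 to 37.8% of the summed signal of lincRNA promoters outside the ribosomal DNA locus. The median marked promoter rested on 11.1 fragments in WT rep1, 27.1 in WT rep2, 89.9 in APC rep1 and 38.2 in APC rep2, so that single values in WT rep1 had the largest counting error. Being chosen on these signals, the 85 are described and not tested.

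The shape of the signal was that of an ordinary start site. Averaged over the 85 promoters, the coverage peaked 100 to 139 bp downstream of the 5′ end in every library, dipped near the 5′ end and had a lower maximum beginning 220 to 240 bp upstream. The downstream maximum was 9.77 in WT rep1, 6.91 in WT rep2, 29.4 in APC rep1 and 8.52 in APC rep2, 8.91 to 12.9 times the level at the outer edges of the profile. In protein-coding promoters the maximum lay 120 to 159 bp downstream. The single promoters were more scattered: 60 of 85 (70.6%) had their maximum within 500 bp of the annotated 5′ end, beside 69.7% of marked protein-coding promoters, and 53 (62.4%) had it downstream, beside 72.2%. Across all 5140 lincRNA promoters outside the ribosomal DNA locus a small peak remained, 1.57 to 3.40 times the edges.

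**Figure D1:**
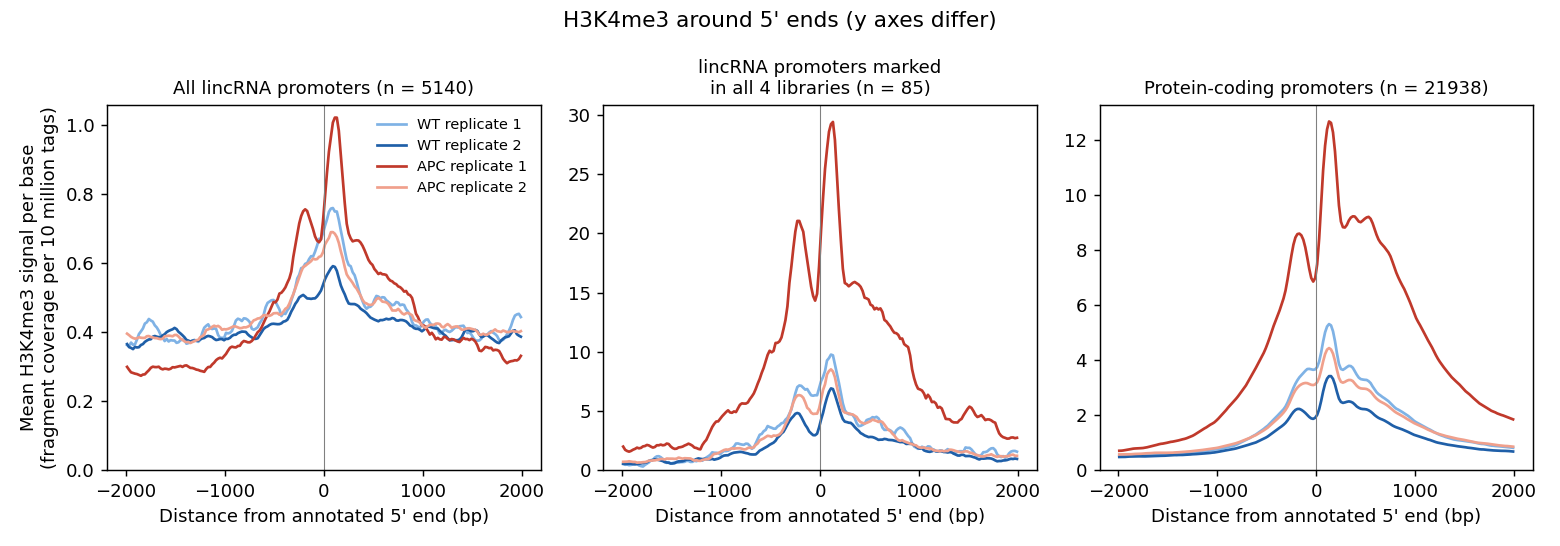
Mean H3K4me3 signal per base in bins of 20 bp from 2000 bp upstream to 2000 bp downstream of annotated 5′ ends, 1 line per library, for all lincRNA promoters outside the ribosomal DNA locus (left), the 85 marked in all 4 libraries (middle) and protein-coding promoters (right). Each panel has its own y axis starting at 0. The marked lincRNA promoters have a maximum downstream and a lower one upstream of the 5′ end in every library, and APC rep1 reaches 29.4 where the others reach 6.91 to 9.77.

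The promoters of 7 genes are printed to show what the marked and the unmarked ones are made of, from 250 bases before to 50 bases from the start of the transcript onwards, 5′ to 3′ on the strand of the gene, as read from the RefSeq copy of the mouse assembly GRCm38 (mm10). 5430416N02Rik, 4632415L05Rik and C030034I22Rik stand for the strongly marked promoters, Snhg6 and Snhg12 for the marked host genes of small nucleolar RNAs, and Xist and Meg3 for well known lincRNAs that were not marked. Their positions are chr5:100429486-100429785 (minus strand) for 5430416N02Rik, chr3:19894636-19894935 (plus strand) for 4632415L05Rik, chr17:69417152-69417451 (plus strand) for C030034I22Rik, chr1:9944069-9944368 (minus strand) for Snhg6, chr4:132308373-132308672 (plus strand) for Snhg12, chrX:103483205-103483504 (minus strand) for Xist and chr12:109540751-109541050 (plus strand) for Meg3. Capitals mark a match on either strand to any of 10 short motifs, which were TATAAA (the box of core promoters bound by TBP), GGGCGG (bound by Sp1 and called the GC box here), CCAAT (bound by NF-Y), CCGGAAG (ETS), GCATGCGC (NRF1), TGACGTCA (CRE), CACGTG (E-box), AAGATGG (YY1), CAAAGTCCA (HNF4A) and ATCAAAG (TCF/LEF), with overlapping matches joined.
5430416N02Rik: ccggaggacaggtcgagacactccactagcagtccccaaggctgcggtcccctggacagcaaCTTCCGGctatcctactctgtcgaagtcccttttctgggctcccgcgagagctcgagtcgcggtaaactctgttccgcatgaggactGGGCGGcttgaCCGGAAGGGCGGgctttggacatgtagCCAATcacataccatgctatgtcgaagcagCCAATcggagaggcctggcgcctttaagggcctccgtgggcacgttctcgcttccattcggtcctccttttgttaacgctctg
4632415L05Rik: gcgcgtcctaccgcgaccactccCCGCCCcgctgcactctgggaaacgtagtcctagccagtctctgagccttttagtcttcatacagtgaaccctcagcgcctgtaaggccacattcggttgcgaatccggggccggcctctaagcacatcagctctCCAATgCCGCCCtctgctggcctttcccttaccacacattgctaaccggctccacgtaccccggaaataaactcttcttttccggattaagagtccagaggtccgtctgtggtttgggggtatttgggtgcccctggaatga
C030034I22Rik: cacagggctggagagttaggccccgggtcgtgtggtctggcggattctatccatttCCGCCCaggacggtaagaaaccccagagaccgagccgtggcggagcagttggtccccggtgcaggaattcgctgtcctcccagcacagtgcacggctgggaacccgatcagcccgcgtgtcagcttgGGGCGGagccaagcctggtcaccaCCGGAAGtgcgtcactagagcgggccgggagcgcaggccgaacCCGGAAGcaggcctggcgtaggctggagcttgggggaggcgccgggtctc
Snhg6: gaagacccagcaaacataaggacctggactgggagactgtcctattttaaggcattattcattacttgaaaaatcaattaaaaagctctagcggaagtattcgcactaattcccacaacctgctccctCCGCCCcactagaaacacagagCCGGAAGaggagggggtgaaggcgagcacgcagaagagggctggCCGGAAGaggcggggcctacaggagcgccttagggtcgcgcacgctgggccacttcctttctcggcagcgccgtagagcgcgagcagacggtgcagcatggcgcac
Snhg12: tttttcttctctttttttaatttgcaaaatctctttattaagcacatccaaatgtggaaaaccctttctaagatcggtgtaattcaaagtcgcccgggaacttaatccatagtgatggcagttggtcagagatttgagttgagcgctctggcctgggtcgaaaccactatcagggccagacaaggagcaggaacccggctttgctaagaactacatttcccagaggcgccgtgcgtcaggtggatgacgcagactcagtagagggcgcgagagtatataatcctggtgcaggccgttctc
Xist: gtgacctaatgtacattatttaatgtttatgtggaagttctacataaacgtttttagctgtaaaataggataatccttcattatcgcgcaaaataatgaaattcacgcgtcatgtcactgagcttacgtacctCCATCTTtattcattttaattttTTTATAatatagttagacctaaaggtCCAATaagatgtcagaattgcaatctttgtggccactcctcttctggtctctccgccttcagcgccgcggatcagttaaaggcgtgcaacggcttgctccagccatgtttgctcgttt
Meg3: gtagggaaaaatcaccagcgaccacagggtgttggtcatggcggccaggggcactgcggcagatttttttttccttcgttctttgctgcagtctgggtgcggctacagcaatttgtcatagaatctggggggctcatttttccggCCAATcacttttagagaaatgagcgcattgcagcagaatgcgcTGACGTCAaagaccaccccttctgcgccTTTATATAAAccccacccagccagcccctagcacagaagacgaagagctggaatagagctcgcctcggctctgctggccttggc

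5430416N02Rik, 4632415L05Rik, C030034I22Rik and Snhg6 have GC boxes, and 3 of these carry ETS matches. Snhg12 holds none of the 10 motifs in this window. Xist and Meg3, which had almost no signal, are no poorer in CpG than Snhg12, with 13 CpG dinucleotides in the 300 bases of each. Over all 85 marked promoters the GC box was found in 35 (41.2%), beside 5.87% of the 4649 lincRNA promoters marked in none and 65.6% of marked protein-coding promoters. The ETS motif was in 19 (22.4%), beside 2.41% of unmarked lincRNA promoters and 21.5% of marked protein-coding ones. TATAAA was less frequent in the marked promoters, 7 of 85 (8.24%) beside 16.5% of the unmarked, as it was in marked protein-coding promoters (6.30% beside 19.7%). CCAAT was found in 37.6% of the marked and 43.6% of the unmarked promoters. The matches to HNF4A (1 of 85), NRF1 and TCF/LEF (2 each), CRE and YY1 (4 each) and the E-box (6) were few. In marked and unmarked lincRNA promoters the shares were 4.71% and 0.516% for CRE and 7.06% and 4.73% for the E-box. For NRF1 they were 2.35% and 0.796%, and for HNF4A 1.18% and 0.237%. TCF/LEF (2.35% and 5.10%) and YY1 (4.71% and 6.97%) were less frequent in the marked promoters. Over all 27792 promoters of the table the GC box was in 36.3%, the ETS motif in 9.27%, TATAAA in 13.2%, CCAAT in 39.6%, the E-box in 7.27%, YY1 in 6.36%, TCF/LEF in 3.69%, NRF1 in 3.14%, CRE in 2.10% and HNF4A in 0.389%. The 300 bases held a median of 10 CpG in the marked and 3 in the unmarked lincRNA promoters. The motif shares were not matched for CpG or base content, so they do not show an excess of a motif beyond it. A match to these letters is not evidence of binding.

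Marked lincRNA promoters were richer in CpG than the rest. The ratio of observed to expected CpG within 500 bp of the 5′ end had a median of 0.53 (quartiles 0.34 and 0.71) in the 85, 0.28 in the 406 marked in 1 to 3 libraries and 0.20 in the 4649 marked in none, where marked protein-coding promoters had 0.76. The share marked rose with this ratio, from 1 of 2482 below 0.2 and 27 of 2060 (1.31%) between 0.2 and 0.4, to 19 of 111 (17.1%) between 0.6 and 0.8 and 15 of 35 (42.9%) at 0.8 or more. In every one of these classes protein-coding promoters were marked more often, with 63.7% and 71.9% in the upper pair. A high ratio was not required, since 51 of the 85 lay below 0.6. The marked promoters also had a higher GC content (median 52.4% beside 44.7%) and fewer bases in annotated repeats (8.29% beside 21.1%). The unmarked set, here and for distance below, includes the 548 promoters of the Y chromosome, of which 497 had no coverage in any library. The number of exons of the longest transcript did not set them apart, with a median of 3 in both.

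The marked promoters lay nearer to protein-coding genes as well. The median distance to the nearest protein-coding 5′ end was 26636 bp for the 85 and 87274 bp for the unmarked, and the share marked was 3.75% (33 of 879) at 5 to 20 kb, 2.96% (30 of 1012) at 20 to 50 kb, 0.900% (18 of 1999) at 50 to 200 kb and 0.320% (4 of 1250) beyond 200 kb. RefSeq annotates some of these loci as coding: it places the 5′ end of a messenger RNA within 1000 bp of 14 of them (16.5%), among them Tmem250-ps, Gm5165, Gm3054 and 1810058I24Rik, beside 1.27% of the unmarked, and 70 lie more than 5000 bp from any such end. Another 3 pairs of marked lincRNA genes shared a promoter region. Gm44066 and Gm26656 on chromosome 6 start 615 bp apart on opposite strands and Gm3054 and Gm40348 on chromosome 5 start 380 bp apart, both pairs pointing away from each other, while 2310001H17Rik and Gm47861 on chromosome 6 overlap at their starts over 449 bp. Each pair was counted as 2 promoters but its signal is largely the same fragments.

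**Figure D2:**
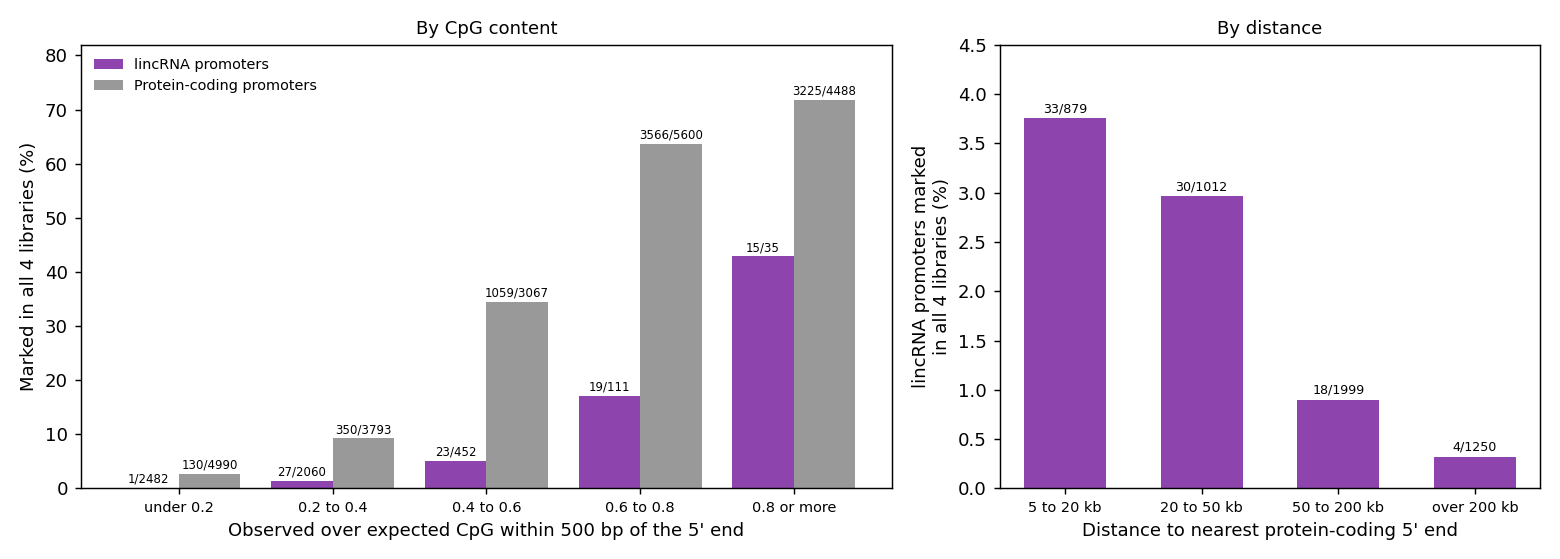
Percent of promoters with at least 5 times background in all 4 libraries, for lincRNA and protein-coding promoters by the ratio of observed to expected CpG (left) and for lincRNA promoters by distance to the nearest protein-coding 5′ end (right); the fractions printed on the bars are the number marked over the number of promoters, without the ribosomal DNA locus. The lincRNA share goes from 0.0403% in the lowest to 42.9% in the highest CpG class and from 3.75% to 0.320% with distance.

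No promoter on the sex chromosomes was marked in all 4 libraries. On the X chromosome this was 0 of 90, with 6 marked in at least 1 library, on the Y chromosome 0 of 548, with 0 marked in any, and on the autosomes 85 of 4502, with 485 marked in at least 1. With so few promoters on the X, a share like that of the autosomes cannot be told from 0. Of the 548 on the Y, 497 had no coverage in any library, and their mean signal was 0.00459 to 0.00551. The sequence there is highly repeated, and the authors had removed reads that align poorly to a single place. The methods for these libraries do not give the sex of the mice. The part of either was not tested.

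Among ordinary lincRNA genes the leading promoter was that of Neat1 (ENSMUSG00000092274.3, chr19:5824708-5845478, minus strand), the RNA around which paraspeckles are built. Its signal was 8.83 and 5.71 in WT rep1 and WT rep2, 25.7 and 6.01 in APC rep1 and APC rep2, resting on 25.3, 54.6, 191 and 65.8 fragments. Malat1 (ENSMUSG00000092341.3, chr19:5795690-5802672, minus strand), an abundant RNA of nuclear speckles from the neighbouring locus, had 4.14, 4.04, 26.5 and 5.43 in the same order. Its signal was strongest 1490 bp downstream of the annotated 5′ end, where that of Neat1 lay 190 bp downstream. Of both genes, APC rep1 was far above the other 3 libraries, and for Neat1 APC rep2 fell between the wild-type values.

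The next ranks went to genes known mostly by clone or model names, whose functions are not described here. Gm6410 had 9.40 and 5.27 in wild type and 24.7 and 6.28 in Apc Min/+ (replicates 1 and 2 of each). For 5430416N02Rik the values were 5.93, 4.45, 25.4 and 7.95. For 4632415L05Rik they were 7.67, 4.68, 17.9 and 6.38. The other members of the leading 15 by mean rank, 2900076A07Rik, Gm39469, Gm36445, 2810405F17Rik, C030034I22Rik, 1700096K18Rik, Tmem250-ps and Gm5165, had 5.23 to 8.72 in WT rep1, 3.34 to 4.78 in WT rep2, 16.9 to 22.9 in APC rep1 and 4.93 to 9.33 in APC rep2.

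Of 146 lncRNA names in 11 lists by function, 49 were among the 5143 promoters (11 others lay within 5000 bp of a protein-coding 5′ end), 17 were marked in at least 1 library and 5 in all 4. The 5 were Neat1, Malat1 and the small RNA host genes Snhg6, Snhg12 and Snhg20, whose introns release small RNAs. Snhg20 had 4.55 and 2.88 in wild type and 8.14 and 4.12 in Apc Min/+. Snhg12 had 4.53, 2.15, 9.33 and 3.19 in the same order. Snhg6 had 2.09, 2.18, 7.87 and 3.18. These host genes belong to a list with 10 members among the promoters described, of which Mir17hg was also marked, the host of a cluster of growth-promoting microRNAs, in APC rep1 with 2.16 (0.313 to 0.806 in the others).

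Genes that regulate X inactivation differed among themselves. Jpx, which promotes Xist expression, had 1.74, 0.940, 9.18 and 2.19 (WT rep1 and WT rep2, then APC rep1 and APC rep2) and was marked in all but WT rep2. Ftx had 1.05, 0.209, 1.39 and 0.183 and was marked in APC rep1 alone. Xist itself, which coats the inactive X chromosome, had 0, 0.116, 0 and 0.110, no more than 1.20 fragments in any library.

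Of 7 genes in the list on growth and DNA damage, 5 were marked in 1 or more libraries and none in all 4. Lockd, transcribed beside the cell cycle inhibitor gene Cdkn1b, had 2.96, 1.65, 10.9 and 2.92, and was short of the limit in WT rep2. Dubr had 1.39, 2.77, 6.999 and 2.90, short in WT rep1. Pvt1, the neighbour of Myc, reached the limit in APC rep1 with 3.11, where the others had 0.697 to 1.12. Likewise 2900097C17Rik was marked there alone, at 1.13 beside 0.384 to 0.515. Gm14005, also known as Morrbid, was marked in WT rep1 alone with 1.74, which rested on 4.99 fragments, and had 0.310 to 0.405 elsewhere. The p53-responsive Trp53cor1, known as lincRNA-p21, was marked in none, with 1.05 and 0.522 in wild type and 0.270 and 1.00 in Apc Min/+.

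In the lists of lncRNAs from other tissues, and also in that of gut epithelium, no promoter was marked in all 4 libraries. The highest mean signal over the libraries was 1.22 in the gut list and 1.25 (H19) in the others. Of 3 neural, 2 Hox cluster and 4 imprinted lncRNAs among these promoters, H19 was the exception that passed the limit, in WT rep1 with 2.09, and it had 0.675 to 1.32 in the other libraries. It is also the marked gene among 4 of mesoderm. Among 11 pluripotency lncRNAs, Platr27 passed it in APC rep1 with 1.12, where the others had 0.579 to 1.39. Meg3, an imprinted lncRNA of the nervous system and muscle, had no fragment in WT rep1 and APC rep1 and 0.313 and 0.475 in the others. A count of 0 allows up to 3 fragments, or a signal of 1.05 in WT rep1 and 0.405 in APC rep1, for counting error only. Among 5 immune and 4 gut lncRNAs, besides Gm14005, AW112010 passed the limit in APC rep1 with 1.18 and had 0 to 0.456 elsewhere, and 9030622O22Rik in that library with 1.23, where the other libraries had 0.951 to 1.37.

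**Figure D3:**
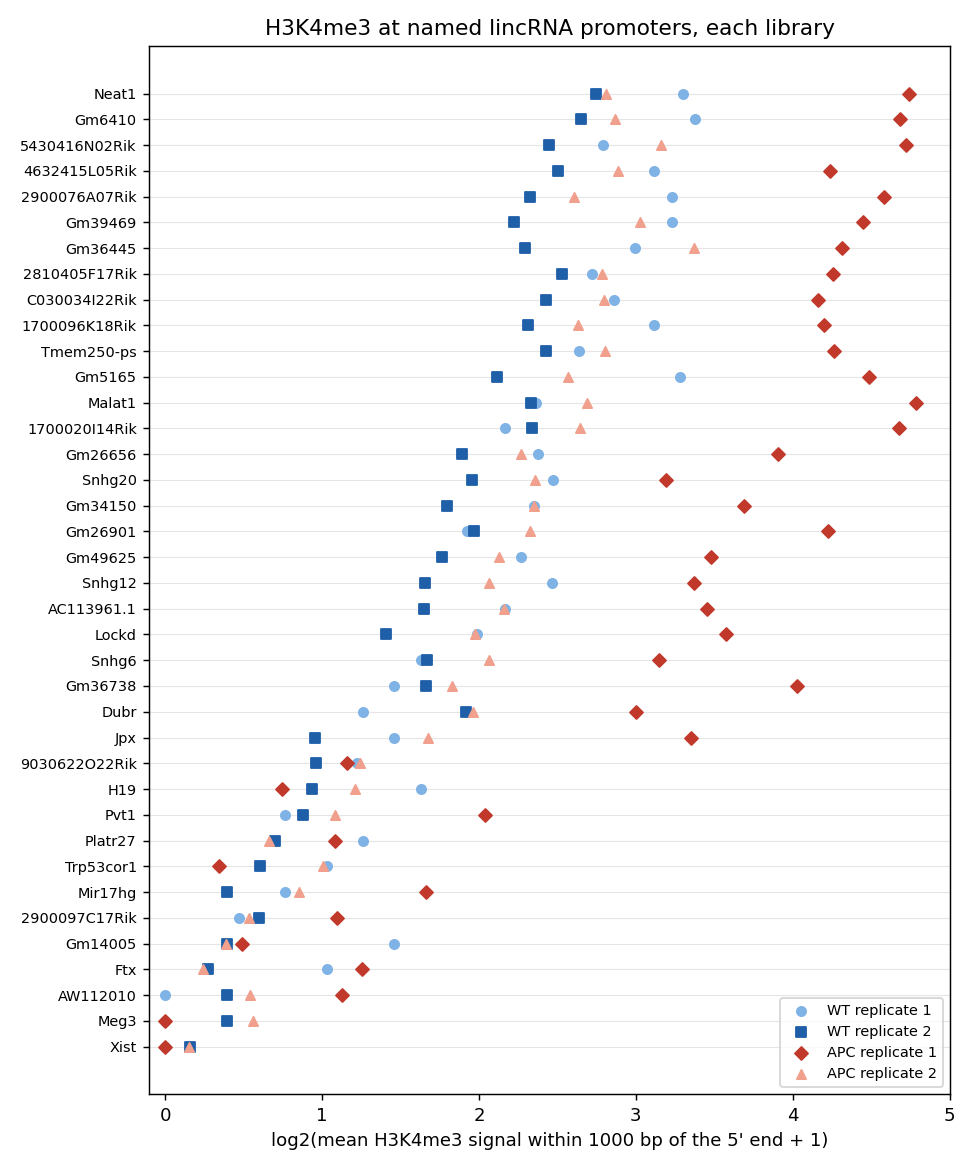
H3K4me3 at the named lincRNA promoters outside the ribosomal DNA locus, ordered by mean rank, as log2(mean signal within 1000 bp of the 5′ end + 1), with 1 symbol per library (WT, wild type; APC, Apc Min/+). APC rep1 lies to the right of the other libraries at the upper 26 genes, from Neat1 down to Jpx. Its signal there, before the log, is 6.999 (Dubr) to 26.5 (Malat1), and the others lie between 0.940 and 9.40.

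On the deposited scale, the average over all lincRNA promoters differed little between the groups. It was 0.602 in WT rep1, 0.499 in WT rep2, 0.617 in APC rep1 and 0.598 in APC rep2, or 0.550 ± 0.0730 and 0.608 ± 0.0135 (SD, n = 2 each), a log2 ratio of Apc Min/+ over wild type of 0.14, with no test. Over protein-coding promoters the same log2 ratio was 1.08, from 2.17 ± 0.593 to 4.60 ± 3.18, and over the 85 marked lincRNA promoters it was 1.22, from 3.68 ± 0.946 to 8.57 ± 6.63. For both of the latter sets APC rep2 (2.35 and 3.88) lay between the wild-type libraries and replicate 1 (6.85 and 13.3) far above them. Over the 8330 protein-coding promoters marked in all 4 libraries, the set chosen like the 85, the log2 ratio was 1.18. In APC rep1 the mean lincRNA promoter had 9.02% of the signal of the mean protein-coding promoter, and in the other libraries 23.2 to 28.4%. The median lincRNA promoter was lower in Apc Min/+, 0.318 ± 0.0677 beside 0.376 ± 0.0389, as was the background of replicate 1. APC rep2, at 0.366, lay between the wild-type medians of 0.349 and 0.403 and little below their mean of 0.376. Of the Apc Min/+ libraries, APC rep1 alone, at 0.270, lay below both wild-type medians.

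The test of single promoters, limma on log2(signal + 1), was run on the 10337 of the whole table whose signal averaged 2 or more. No promoter passed an adjusted p of 0.05 (Benjamini-Hochberg), 0% of the table and 0 of its 147 lincRNA promoters. The smallest adjusted p was 0.684, and 4 of the 147 had an unadjusted p under 0.05. The median log2 difference, Apc Min/+ minus wild type, was 0.78 for the 147 and 0.85 for the 9930 protein-coding promoters tested. Higher in Apc Min/+ by group mean were 145 of 147 (98.6%) lincRNA promoters and 99.3% of the protein-coding ones. The filter used the mean of all 4 libraries, so a high value in APC rep1 helped a promoter to pass. Without the filter 38.9% of the 5143 lincRNA promoters were higher, 2580 were lower and 562 equal. Of all 21938 protein-coding promoters 70.3% were higher. With each library divided by its median tested protein-coding promoter the share of the 147 fell to 46.9%, beside 48.8% of all promoters tested, and with quantile normalization to 43.5%, beside 49.3%. With the centring done on the log2 values, as for the test, it was 60 of 147 (40.8%), beside 48.6%. With limma on centred values, 11 promoters of the table (0.106%) and 0 of the 147 were called, 1 of the 147 had an unadjusted p under 0.05, and the median log2 difference of the 147 was -0.07. APC rep1 was the highest library at 137 of the 147 (93.2%), beside 98.5% of all promoters tested. Without it the median log2 difference was 0.14 for the lincRNA and 0.13 for the protein-coding promoters. Without APC rep2, which leaves replicate 1 as the lone Apc Min/+ library, assumed to vary as the wild-type pair does, limma called 103 of the 147 higher (adjusted p under 0.05), beside 65.1% of the table, and 0 when the values were centred, where 15 of the 147 had an unadjusted p under 0.05.

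Both Apc Min/+ values exceeded both wild-type values at 49 of the 147 lincRNA promoters (33.3%), beside 38.4% of all tested promoters, and lay below both at 0, beside 0.155%. A filter on the mean of all 4 libraries, here and at 5 or more below, favours promoters high in APC rep1. Such counts therefore cannot decide the direction. Over all 5143 lincRNA promoters, most of them near background, both values were above at 585 (11.4%) and below at 805 (15.7%). Of the 53 whose signal averaged 5 or more, both Apc Min/+ values were above both wild-type values at 20 (37.7%), beside 32% of the 6717 promoters of the table at this level, and below both at 0, beside 0.0596%. The 5 with the largest log2 differences were 1700020I14Rik, Malat1, Gm36738, Gm26901 and 5430416N02Rik, and none of them passed the threshold. 1700020I14Rik had 3.49 and 4.05 in wild type and 24.5 and 5.24 in Apc Min/+, a log2 difference of 1.41 ± 1.13 (SE, limma adjusted p = 0.684). In Malat1 the log2 difference was 1.39 ± 1.16. Gm36738 had 1.74 and 2.17 in wild type and 15.3 and 2.56 in Apc Min/+ (1.37 ± 0.84). Gm26901 had 2.79 and 2.92 in wild type and 17.7 and 4.02 in Apc Min/+ (1.33 ± 0.99). In 5430416N02Rik the log2 difference was 1.32 ± 1.23. In all 5 the second Apc Min/+ library was above the wild-type pair by far less than the first, and the adjusted p of each was 0.684. Without APC rep1 the log2 differences of these genes were 0.39, 0.34, 0.27, 0.38 and 0.54, in the order above. Jpx had a log2 difference of 1.31 ± 0.70 and Neat1 of 0.75 ± 1.25, with the same adjusted p to 3 digits. That of Neat1 was -0.21 without APC rep1 and -0.10 with centring. Centring lowered those of the 5 genes to 0.55, 0.53, 0.51, 0.48 and 0.47 in the order above and that of Jpx to 0.45. Without APC rep2, which leaves 1 Apc Min/+ library, these 6 genes had log2 differences of 2.10 to 2.46 on the deposited scale. The median was then 1.48 over the 147 lincRNA promoters tested and 1.58 over all promoters tested.

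Some marked promoters were equal in all libraries once each was set against its median tested protein-coding promoter. The centred log2 values of C030034I22Rik were 0.40 and 0.41 in wild type and 0.34 and 0.42 in Apc Min/+, an SD of 0.04 over the 4 libraries. Those of Gm49625 (SD 0.06), AC113961.1 (0.08), Gm34150 (0.09) and Gm26656 (0.10) spread little more. These 5 were picked as the most equal, so their evenness is a description. The order of the lincRNA promoters was shared between libraries: over the 144 with a mean signal of at least 2 outside the ribosomal DNA locus, Spearman's rho for the 6 pairs of libraries was 0.61 to 0.74, and for the 9930 protein-coding promoters 0.73 to 0.82. The lowest value was that of the wild-type pair, which includes the shallowest library.

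**Figure D4:**
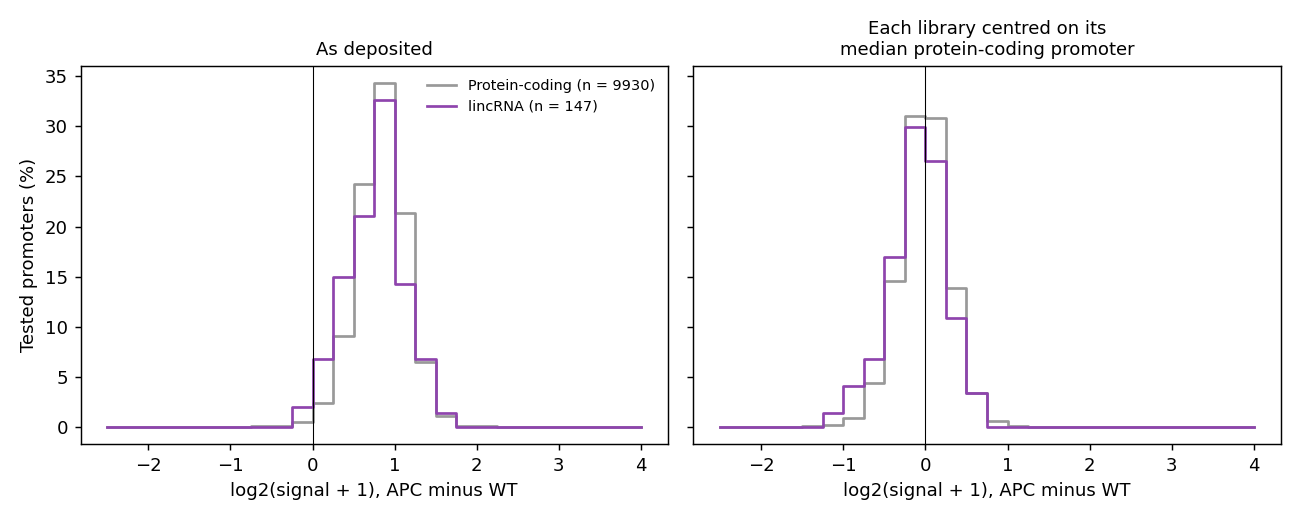
Distribution of the log2 difference in signal, Apc Min/+ (APC) minus wild type (WT), over the promoters tested, in bins of 0.25, as percent of the 147 lincRNA and of the 9930 protein-coding promoters, on the deposited scale (left) and after centring each library (right). The distributions of both kinds lie mostly above 0 on the left, with medians of 0.78 and 0.85, and around 0 on the right.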

How the data were processed

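H3K4me3 CUT&RUN libraries of villus cells from 2 wild-type and 2 Apc Min/+ mice were used. According to the methods, the authors trimmed the read pairs, aligned them to mm10 with Bowtie2, removed duplicates with Picard and reads of low mapping quality with samtools, and kept fragments of the length of histone marks. The deposited values are signal, the coverage per base that HOMER wrote for each library without pooling, scaled by the authors to 10000000 tags and corrected for fragment length. A no-antibody control was not used here. Since these are not counts, models for counts were not run, and fragments were obtained by dividing the summed signal of a window by the signal of 1 tag (1 tag taken as 1 fragment). With 1430000 to 5470000 tags per library the background gave 0.869 to 3.37 fragments per window, so low promoters had a large counting error.

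Promoters were the 5′ ends of GENCODE M21 genes of type lincRNA and protein_coding on the 21 chromosomes of mm10. The members and the lists were chosen with earlier results of these data known. Of the members, 238 share part of their window with another member, 367 have the 5′ end of a gene of another kind or another lincRNA within 1000 bp, and 166 lie inside a protein-coding gene body. CpG, GC content and repeats (lower case bases) were taken within 500 bp of the 5′ end from the RefSeq copy of GRCm38 (mm10). The distance to RefSeq mRNA 5′ ends was taken from its annotation.

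Group differences were tested on log2(signal + 1), using limma 3.58.1 (R 4.3.3) and its trend option, for promoters whose signal averaged 2 or more, with Benjamini-Hochberg adjustment over the whole table and a threshold of 0.05. Each group had 2 mice, and p-values measure the spread between these libraries alone. Other values were described without a test. Genes were named by rule: those of the lncRNA lists that were marked in at least 1 library or are known from textbooks, the 15 with the highest mean rank, the 5 largest differences in each direction (with none past the threshold, those of non-overlapping groups whose signal averaged 5 or more) and the 5 marked promoters with the most equal centred values. 1810058I24Rik, Gm3054, Gm40348, Gm44066, 2310001H17Rik, Gm47861, C430042M11Rik and Gm13203 were named after their values were seen. The alternatives were the scaling between libraries, the window, the 5′ end, the filter, the pseudocount, a replicate block, the limit for marking, the distance and leaving out each library. Leaving out the ribosomal DNA locus or loci near RefSeq mRNA 5′ ends, and centring together with the block or with leaving out a library, were chosen after seeing the data. Python 3.11.15 with numpy 2.4.6 and pandas 2.3.3 was used for the other steps.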

Additional observations from a re-analysis of the deposited data

How the results depend on the processing

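The limma count of lincRNA promoters past the threshold was 0 under every scaling, window, filter, pseudocount, distance and block tried, with 0 to 250 at an unadjusted p under 0.05, and ranged from 0 to 103 when a library was left out, the 103 arising without APC rep2 on the deposited scale. The log2 ratio of the average lincRNA promoter (0.14) was -0.64 when centred, 0.48 when scaled to background and -0.24 with the median over promoters, and -1.66 to 0.28 when a library was left out, with and without centring. The share higher in Apc Min/+ (98.6%) was 46.9% when centred, 43.5% with quantile normalization and 38.9% with no filter on low signal, and 42.9 to 99.3% when a library was left out, 59.9% without APC rep1. The number of promoters marked in all 4 libraries (88) was 56 with a window of 2000 bp, 177 at 3 times and 29 at 10 times background, 55 more than 20000 bp from protein-coding 5′ ends and 88 to 135 when a library was left out, the 135 arising without WT rep2. The log2 difference of Neat1 (0.75) was -0.10 when centred, with and without a replicate block, -0.16 with quantile normalization, and -0.34 to 1.72 when a library was left out. The other 6 log2 differences examined (1700020I14Rik, Malat1, Gm36738, Gm26901, 5430416N02Rik and Jpx) kept their sign under these alternatives. They fell from 1.31 to 1.41 to 0.45 to 0.55 with centring, and were 2.10 to 2.46 without APC rep2 on the deposited scale. The cause of these shifts was not tested.

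The replicate numbers are shared by the groups in the labels, and the deviations of same-numbered libraries correlated at 0.19 over 10337 promoters, with 2 pairs only. A fit with the replicate number as a block left the limma count at 0 (6 of 147 at an unadjusted p under 0.05), and 0 with centring (5 of 147). The fragments in WT rep1 limit what could be seen at low promoters: 3 fragments, the limit that a count of 0 allows, equal 3.45 times its background.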

Other observations

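Chromosome 17 held 16 of the 88 lincRNA promoters marked in all 4 libraries, 8.04% of its 199 promoters, including the 3 of the ribosomal DNA locus. Chromosome 11 had 7 of 148 (4.73%) and chromosome 19 had 5 of 116 (4.31%), among them Neat1 and Malat1, whereas chromosome 3 had 1 of 239 (0.418%). On chromosome 13, 10 of 384 (2.60%) were marked.

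Of the lincRNA promoters, 293 were marked in exactly 1 library and 54 in exactly 2. In 1 such case, Gm14005 in WT rep1, the value rested on 4.99 fragments.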
